A study of Mus musculus with 2 samples.

Results

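R-loop peaks that lay inside long genes, away from every gene start and end, were taken from the peak list of mouse neural stem/progenitor cells (NSPCs). A peak was counted when its midpoint fell between the start and the end of a protein-coding gene of 300 kb or more and the peak held no transcription start site (TSS) or transcription end site (TES) of a protein-coding gene. Of the 22132 peaks in the list, 1359 (6.14%) met this rule, and a further 70 peaks with their midpoint in such a gene held a start or an end and were left out. The annotation held 528 genes of this length among 22367 protein-coding genes.

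The NSPCs were primary cells from frontal brains of C57BL/6 mice at postnatal day 7. RNA:DNA hybrids were recovered from their digested genomic DNA with the S9.6 antibody and sequenced (DRIP-seq), and an input library without antibody, which was not analysed here, served as control. According to the methods of the paper the cells had received 0.5 μM aphidicolin, an inhibitor of replicative DNA polymerases, for 48 h, whereas the sample labels name no treatment. No untreated cells were compared, and the peak list holds 1 set of positions for all replicates, so the values below have no replicate error, no test between samples was possible and the sequencing depth behind a peak is unknown.

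An R-loop forms when nascent RNA anneals back to the template DNA strand behind RNA polymerase and leaves the coding strand single-stranded. Hybrids of G-rich RNA with a C-rich template strand are particularly stable. Genes of this length are rare, consist almost entirely of intron and, in neural cells, often encode adhesion proteins, synaptic proteins, ion channels and developmental transcription factors. Many of them replicate late and include common fragile sites, where replication stress leaves gaps and breaks.

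Sequences of 60 bases are shown first, because repeats and G runs under these peaks are counted in the results below. Each is written 5′ to 3′ on the coding strand of its gene, read from mm9, and capitals mark runs of 3 or more G. Among all 60-base windows inside the 1359 peaks, the 4 shown first come from the peaks whose G outnumbered C by the widest margin, with 45 G and 0 C in Exoc4, Macf1 and Nav2 and 44 G and 0 C in Syne1. A peak in Grip1 reached the same margin of 44 and is not shown. They lie at chr6:33831573-33831632 (plus strand) in Exoc4, a subunit of the exocyst that tethers secretory vesicles, at chr4:123249486-123249545 (minus strand) in Macf1, a crosslinker of microtubules and actin, at chr7:56549760-56549819 (plus strand) in Nav2, a cytoskeletal neuron navigator, and at chr10:5133270-5133329 (plus strand) in Syne1, a protein of the nuclear envelope. All 4 are intronic.
Exoc4 intron 14: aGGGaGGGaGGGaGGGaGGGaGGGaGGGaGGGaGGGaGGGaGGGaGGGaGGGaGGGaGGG
Macf1 intron 1: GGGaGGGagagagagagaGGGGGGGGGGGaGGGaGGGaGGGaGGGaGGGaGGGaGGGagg
Nav2 intron 1: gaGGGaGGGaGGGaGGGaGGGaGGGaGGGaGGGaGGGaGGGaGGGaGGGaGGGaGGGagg
Syne1 intron 82: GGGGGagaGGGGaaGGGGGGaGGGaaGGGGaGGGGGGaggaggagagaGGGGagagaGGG

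In each of 10 genes described below, the window with the largest G excess was also read from the widest peak that touched no exon. These windows lie at chr1:91392401-91392460 in Agap1, chr12:54353107-54353166 in Npas3, chr8:120847352-120847411 in Cdh13, chr15:30169185-30169244 in Ctnnd2, chr5:19906581-19906640 in Magi2, chr7:56608102-56608161 in Nav2, chr12:90406062-90406121 in Nrxn3 and chr16:42076969-42077028 in Lsamp, all on the plus strand. On the minus strand they lie at chr11:88563436-88563495 in Msi2 and chr8:16213776-16213835 in Csmd1. Agap1, Npas3 and Cdh13 show purine runs with GA repeats, Msi2 and Ctnnd2 show TG repeats, and Magi2, Nav2 and Csmd1 show G runs without a long repeat. The windows of Nrxn3, with 8 G and 16 C, and of Lsamp, with 13 G and 10 C, show neither a repeat nor more than 1 run of G. Each window was picked for its G excess and need not resemble the rest of its peak. The Nrxn3 window is the end of a peak that was otherwise almost all pyrimidine on the coding strand, as its purine share below shows.
Agap1 intron 1: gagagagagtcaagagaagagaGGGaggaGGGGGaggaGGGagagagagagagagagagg
Npas3 intron 1: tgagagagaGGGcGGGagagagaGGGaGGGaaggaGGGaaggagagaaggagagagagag
Cdh13 intron 1: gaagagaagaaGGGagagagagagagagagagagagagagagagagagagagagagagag
Msi2 intron 5: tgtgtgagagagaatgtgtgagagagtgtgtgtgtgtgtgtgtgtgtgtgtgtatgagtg
Ctnnd2 intron 1: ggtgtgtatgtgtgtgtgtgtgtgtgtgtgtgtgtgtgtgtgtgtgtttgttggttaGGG
Magi2 intron 9: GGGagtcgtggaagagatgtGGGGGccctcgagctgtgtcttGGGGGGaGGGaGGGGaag
Nav2 intron 1, widest: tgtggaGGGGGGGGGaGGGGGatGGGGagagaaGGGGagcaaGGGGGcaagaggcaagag
Csmd1 intron 17: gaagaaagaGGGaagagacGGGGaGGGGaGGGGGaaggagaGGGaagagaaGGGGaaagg
Nrxn3 intron 3: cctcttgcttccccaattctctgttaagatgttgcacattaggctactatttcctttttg
Lsamp intron 3: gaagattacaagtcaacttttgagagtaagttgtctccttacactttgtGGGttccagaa

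At least 1 peak lay inside 352 of the 528 long genes (66.7%), and none inside the other 176 (33.3%). Over all protein-coding genes of any length, 27.2% had such a peak. The peaks were spread unevenly: 137 long genes held exactly 1, 130 held 2 to 4, and 85 held 5 or more, which only 2.16% of all protein-coding genes reached. The median long gene held 1 peak, 27 genes held 10 or more, and 8 held 20 or more. The 20 genes with the most peaks together held 426 (31.3%).

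The pair of genes at the head of this order had annotated spans that cover many other genes. Gm20388, an annotated locus of 4435 kb on chromosome 8 that spans 72 other protein-coding genes, held 83 peaks, 54 of which also lay in one of those genes. Fgfr2, a fibroblast growth factor receptor, held 37 over an annotated 3009 kb, reached through 1 of its transcripts, with 31 other genes inside, and 33 of its peaks lay in one of those. Of the 7 long genes that spanned 5 or more other protein-coding genes, Arfip1 held 9 peaks, BB287469 held 1, and Med12l, Gm10406 and Gm3739 held none, so that the 7 spans together held 130. Without them, 1229 peaks remained in 521 long genes, of which 348 held at least 1. Several shares and densities are also given without these spans, and values given only with them can change too.

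Among the remaining genes Agap1 had both the most peaks and the highest density. Agap1 encodes a GTPase-activating protein for Arf proteins in endosomal traffic and lies at chr1:91351381-91791857 on the plus strand (ENSMUSG00000055013). It held 29 peaks in 440.5 kb, or 6.58 per 100 kb, and they covered 40.4% of the gene. Of these peaks, 11 had their midpoints between 71.2 and 115 kb from the start, and the longest interval between neighbouring midpoints was 45.7 kb. Agap1 also held 4 of the 5 widest peaks inside any long gene, with widths of 36.7, 28.8, 24.0 and 19.0 kb. The other one, of 27.3 kb, was in Kirrel3, a neural adhesion protein. In the 500 kb on either side of Agap1, 4 peaks lay upstream and 5 downstream.

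Msi2 (ENSMUSG00000069769, chr11:88152884-88579827, minus strand), which encodes a Musashi RNA-binding protein of stem and progenitor cells, followed with 27 peaks in 426.9 kb (6.32 per 100 kb, 20.7% of the gene covered). Cut into 4 equal stretches from start to end, the gene held 6, 5, 6 and 10 peaks, and its widest was 16.0 kb. Nav2 (ENSMUSG00000052512, chr7:56501559-56865457, plus strand) held 22 in 363.9 kb (6.05 per 100 kb, 14.2% covered), but only 5 of them in the first 50% of its length and 17 in the rest. These 3 genes stood apart in density, as the next were Tcf4, a basic helix-loop-helix transcription factor, with 4.65 per 100 kb and Dock1, an activator of the GTPase Rac, with 3.98 per 100 kb.

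In several genes the peaks were gathered in one stretch. In Npas3 (ENSMUSG00000021010, chr12:54349664-55173162, plus strand), a bHLH-PAS transcription factor of brain development, 12 of 24 peaks lay in the first 25% of its 823.5 kb, and 7 had midpoints between 21.8 and 64.5 kb from the start. Tcf4 had 9 of 16 in its first 25%, 6 of them between 3.05 and 38.5 kb. In Ntrk2, the receptor for brain-derived neurotrophic factor, all 11 lay between 36.6 and 160 kb, and the remaining 167 kb held none. Toward the 3′ end, Schip1 had 12 of 13 peaks in its last 25% after an interval of 295 kb without a midpoint, and Frmd4a, which encodes a FERM domain protein, had 9 of 12 in its last 25% after an interval of 383 kb. Exoc4 had 9 of 16 in its last 25% and 0 between 25 and 50% of its length. In Magi2, a synaptic scaffold of 1478 kb, all 4 peaks inside lay from 1035 kb onward, although a separate peak covered its start.

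**Figure D1:**
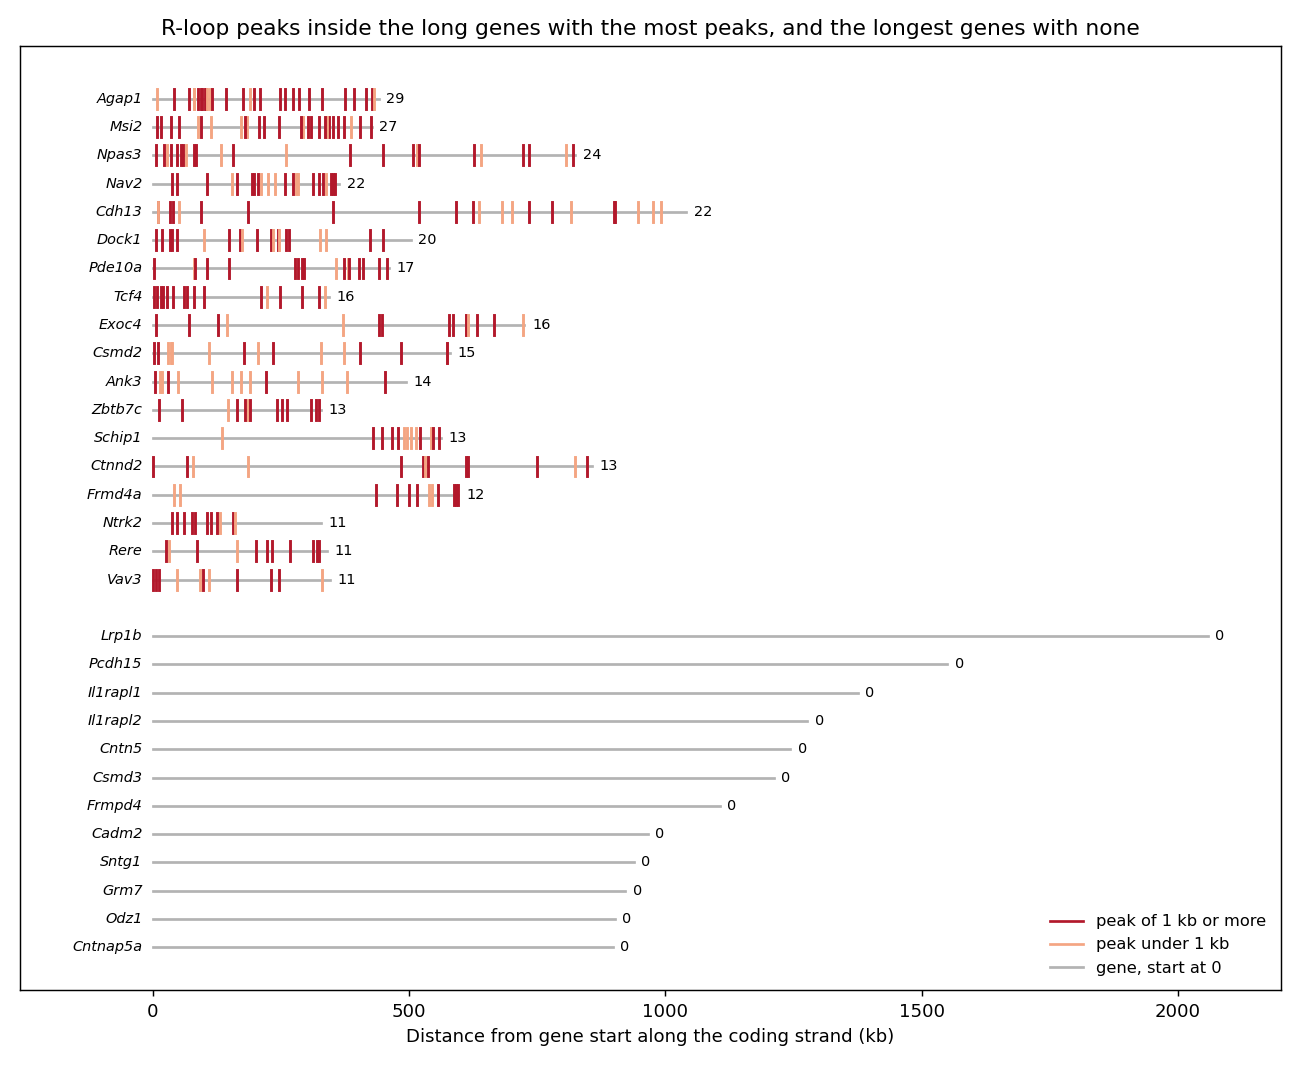
Positions of R-loop peaks along the 18 long genes with the most peaks (without Gm20388 and Fgfr2, ties at 11 decided by density) and along the 12 longest genes with none, in kb from the gene start along the coding strand. Each tick is the midpoint of a peak, dark for 1 kb or more and light for less, and the number at the right is the count, from 29 in Agap1 to 11 in Vav3 and 0 in the lower genes.

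Other genes of the first 20 were Cdh13, an adhesion protein anchored by lipid, with 22 peaks in 1041 kb, Pde10a, a cyclic nucleotide phosphodiesterase, with 17 peaks in 461.3 kb, and Csmd2, a large membrane protein, with 15 in 579.8 kb. Ank3, which encodes ankyrin G, held 14 peaks, but only 4 were of 1 kb or more, and all 14 together covered 3.11% of the gene. Zbtb7c, a zinc finger protein, held 13, of which 11 were of 1 kb or more, and they covered 10.0%. Ctnnd2, which encodes delta-catenin, held 13 peaks, 4 in the first 25% of its length, 0 between 25 and 50% and 9 beyond. Rere, a nuclear receptor coregulator, and Vav3, an exchange factor for small GTPases, each held 11. Prkcb and Dst also held 11 but fewer per 100 kb (3.18 and 2.75), which decided the order among ties.

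Density fell with gene length while the share of genes with a peak rose. Long genes had 4.55 peaks per Mb over a summed 298.4 Mb (4.26 without the spans), against 15.6 per Mb in all shorter genes, where the same rule on starts and ends was applied. The share of genes with a peak inside was 58.7% at 100 to 300 kb, 62.8% at 300 to 500 kb, 68.2% at 500 to 1000 kb and 86.5% at 1000 kb or more. Density in these classes was 11.4, 5.54, 3.99 and 3.65 per Mb, and the last was 2.17 per Mb without the spans. Across the 528 long genes, length and peaks per 100 kb had a Spearman correlation of -0.0492, a description across genes, which are not independent samples. Around the limit itself, the 50 genes just under 300 kb (282.2 to 299.8 kb) held 141 peaks in 32 genes, and the 50 just over it (300.5 to 320.0 kb) held 81 peaks in 30 genes. Jazf1, with 299.8 kb the longest below the limit, held 0 and Pam, with 300.5 kb the shortest above it, held 2.

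**Figure D2:**
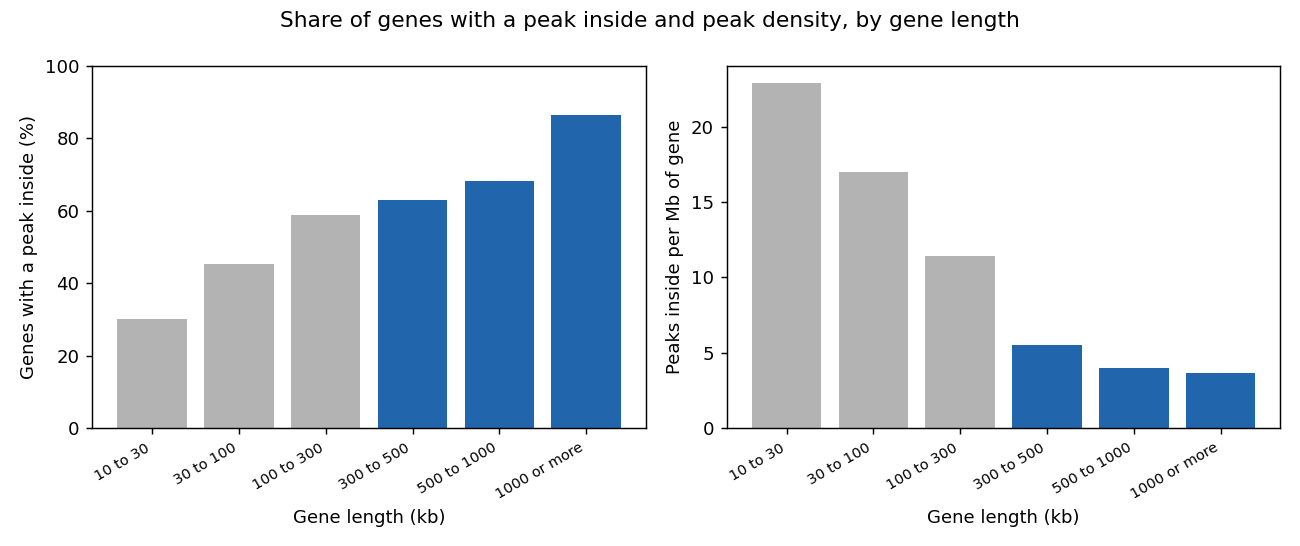
Share of protein-coding genes with a peak inside (left) and peaks inside per Mb of summed gene length (right), by gene length, with genes of 300 kb or more in blue. The share rose from 30.2% at 10 to 30 kb to 86.5% at 1000 kb or more, whereas density fell from 22.9 to 3.65 per Mb (2.17 without the spans over other genes).

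Long genes rich in GC had more peaks than those poor in GC. When the 528 genes were ordered by GC content and cut into 4 groups of 132, the share with a peak inside was 42.4% in the group of 34.6 to 38.6% GC, then 62.9%, 72.7% and 88.6% in the group of 43.3 to 51.9% GC. Density in these groups was 1.03, 2.63, 5.05 and 10.8 per Mb, and 10.2 in the last without the spans. GC content and peaks per 100 kb had a Spearman correlation of 0.529 across the 528 genes. Agap1 and Nav2 had 48.7 and 48.1% GC, and Msi2 had marginally less. Tcf4 and Npas3, with 42.2 and 41.2%, and Vav3, with 40.4%, reached 4.65, 2.91 and 3.19 peaks per 100 kb at a lower GC content. The restriction sites described below also became rarer with GC content, in 89.3% of 1 kb windows of long genes at 35 to 40% GC and 64.9% at 50 to 55%, and their part in this order was not tested.

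**Figure D3:**
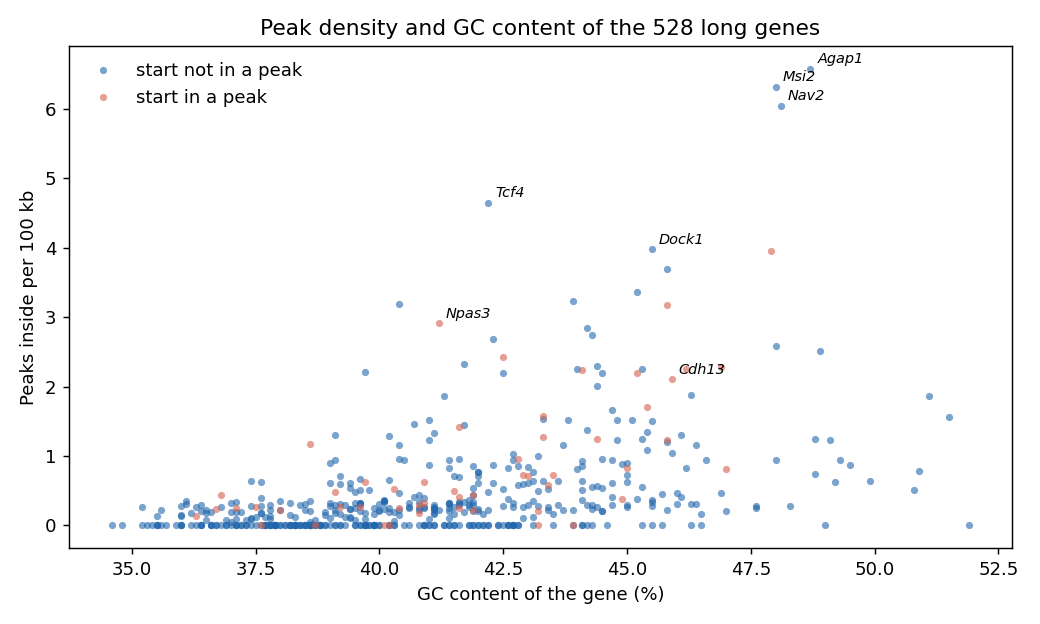
Peaks inside per 100 kb against the GC content of the gene in percent, 1 point for each of the 528 long genes, with genes whose start lay in a peak in red. Density rose with GC content (Spearman correlation 0.529), and Agap1, Msi2 and Nav2 lie above 6 per 100 kb.

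The start of the gene was itself in a peak for 52 long genes (9.85%), compared to 14.9% of all protein-coding genes, and the end for 13 (2.46%), compared to 10.9%. These peaks were not among the 1359, so they are a separate reading of the same genes. Of the 52 genes, 46 (88.5%) also had a peak inside, against 306 of 476 (64.3%) without a peak at the start. The difference was present within each GC group, with 85.7 against 40.0%, 76.9 against 61.3%, 92.9 against 70.3% and 94.4 against 87.7% from the lowest GC to the highest. The groups with a peak at the start held only 7, 13, 14 and 18 genes. Long genes on the X chromosome had few peaks: 3 of 25 had any, with 8 peaks in all or 0.510 per Mb, against 349 of 503 and 4.78 per Mb on the autosomes. Of the 8 peaks, 4 were in Dmd (dystrophin) and 3 were in Mid1, a ubiquitin ligase, between 308 and 317 kb from its start. The 25 genes on the X chromosome had 34.6 to 41.8% GC, beside a median of 40.9% over all long genes. The lowest GC group of long genes on any chromosome had 1.03 peaks per Mb. The part of GC content in the low density on the X chromosome was not tested.

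Peaks were denser near the ends of long genes than in their middle. Without the spans, the density was 9.50 per Mb within 10 kb of the nearer end, 7.87 at 10 to 25 kb, 5.03 at 50 to 100 kb, 4.09 at 150 to 200 kb, 2.06 at 300 to 500 kb and 1.35 at 500 to 1000 kb. The last value comes from 21 peaks in the 49 genes of 1000 kb or more. Those genes already had only 6.12 per Mb within 10 kb of either end. This value rests on 6 peaks, 5 of them near the start and 1 near the end of the gene. In genes of 300 to 500 kb the decrease stopped at 100 to 150 kb, where density was 4.44, and it was 5.41 at 200 to 300 kb. Genes of 100 to 300 kb went from 16.6 within 10 kb to 7.79 at 100 to 150 kb. Along the length of the gene, the first 10% held 13.9% of the 1359 peaks (95% exact binomial interval 12.1 to 15.9%, which covers counting alone) and the last 10% held 16.3%. The lowest share in any such stretch, the fourth of 10, was 6.62%.

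**Figure D4:**
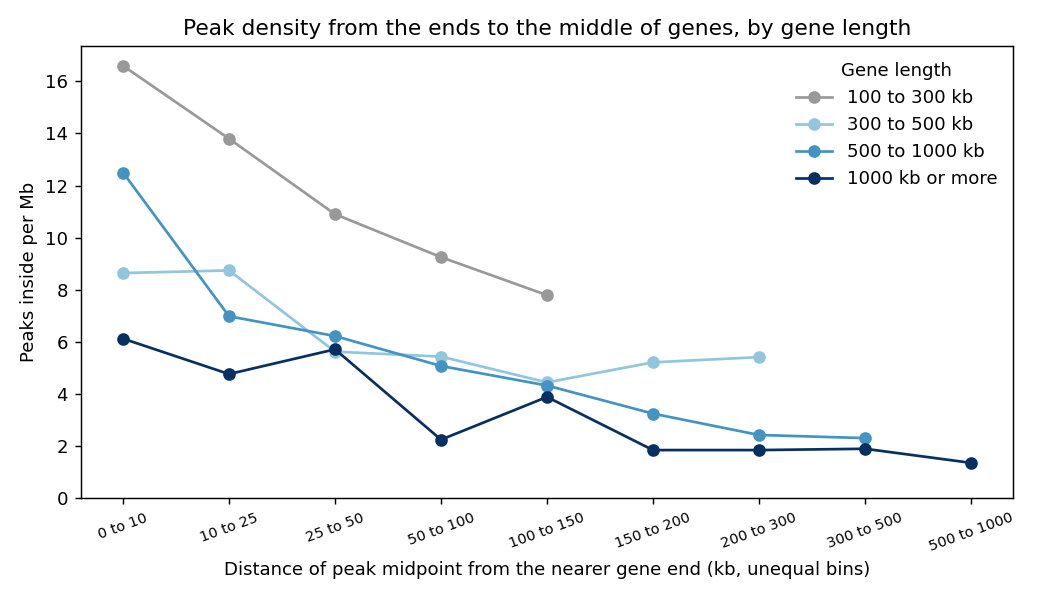
Peaks inside per Mb against the distance of the peak midpoint from the nearer gene end in kb, for 4 classes of gene length, without the spans over other genes. In genes of 1000 kb or more, density was 6.12 per Mb at 0 to 10 kb, from 6 peaks. It was 1.35 per Mb at 500 to 1000 kb, from 21 peaks, with an uneven course between. Genes of 100 to 300 kb lie above all longer classes at every distance they reach.

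Nearly all of the peaks were intronic. In the longest transcript of its gene, 1273 peaks (93.7%) had the midpoint in an intron, 22 in an exon, and 64 lay outside that transcript. The first intron held 381 (29.9%) of the intronic peaks, and first introns made up 22.9% of intron bases. Introns of 100 kb or more held 53.6%, close to the 54.7% of intron bases in such introns. Counting the whole width of the peak, 1168 (85.9%, interval 84.0 to 87.8%) touched no exon, which rose to 88.4% without the spans. The 191 peaks over an exon included the wide peaks in Agap1 of 36.7, 28.8 and 24.0 kb.

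The peaks were narrower than those inside shorter genes and stood farther apart. The median width was 0.845 kb, against 1.13 kb in genes of 100 to 300 kb and 1.32 kb in all shorter genes, and 45.0% (interval 42.3 to 47.6%) were of 1 kb or more, against 54.6 and 59.8%. The distance to the nearest other peak had a median of 19.5 kb, compared to 9.50 kb and 6.54 kb. Without the spans the median width was 0.819 kb, 43.2% of peaks were of 1 kb or more and the median distance was 22.6 kb. GC content had a median of 47.1%, against 47.9 and 48.5%, and ranged from 29.3 to 74.5%, and 353 peaks (26.0%, interval 23.7 to 28.4%) were over 50% GC, or 22.7% without the spans. Peaks over 50% GC were less frequent here than among peaks in genes of 100 to 300 kb (31.1%), in all shorter genes (37.0%) and in the whole list (40.4%). In 1080 cases (79.5%) the peak was richer in GC than the gene around it, by a median of 3.11 percentage points over all 1359. The 5 richest were in Stag1 (74.5%), a cohesin subunit, Fgfr2 (70.0%), Atxn1 (69.8%), Mid1 (69.2%) and Macf1 (69.2%). These differences come from 1 list and were not tested.

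G exceeded C on the coding strand in 757 peaks (55.7%, interval 53.0 to 58.4%). The share was 63.0% for peaks in genes of 100 to 300 kb and 65.8% in all shorter genes. In windows of 1 kb it was 54.7% at the peaks and 52.5% over all long genes, against 64.0 and 58.1% for shorter genes, and 714 peaks (52.5%) had a higher skew than their gene, where skew is the difference between G and C over their sum. The share over all peaks was thus near that of long genes as a whole. It was 57.2% without the spans over other genes and 62.4% among peaks of 1 kb or more. Each peak was read on the strand of its long gene, also where it lay in another gene. Peaks in shorter genes on both strands were left out, so the comparison with shorter genes is not fully alike. Peaks of 1 gene could differ in sign: in Nrxn3, a presynaptic neurexin, the peak at 444.5 kb from the start had a skew of -0.891 and 5.12% purines on the coding strand, while the peak at 759.0 kb had a skew of 0.298 and 62.9% purines. In Magi2 the 4 peaks had skews of 0.655, -0.0653, -0.309 and 0.488. DRIP-seq does not keep the strand of the hybrid, so which strand carried RNA at these sites was not measured.

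Dinucleotide repeats of the kind printed above were frequent under the peaks. To compare equal lengths, windows of 1 kb were centred on the peaks and tiled over all long genes. A run of at least 10 CA or 10 TG units (20 bases, CACACACACACACACACACA or TGTGTGTGTGTGTGTGTGTG on the coding strand, so that the same repeat is found on either strand) was found in 29.1% of the windows at peaks and in 10.1% of the tiled windows. For peaks inside shorter genes the share was 16.7%, and 9.26% for windows tiled over shorter genes. Runs of 10 GA or 10 TC units were found in 11.0% of windows at peaks and 4.39% of tiled windows, whereas runs of 10 TA units were found in 0.736% and 1.57%. At equal GC content of 40 to 45%, the share with a CA or TG run was 35.3% at the peaks, 21.4% at peaks in shorter genes and 10.9% in tiled long genes, and at 45 to 50% it was 30.2, 19.2 and 11.4%. A G4-like pattern, 4 runs of 3 or more G separated by 1 to 7 bases, was on the coding strand in 12.7% of windows at peaks and 6.50% of tiled windows, and on the template strand in 12.5 and 8.19%. At peaks inside shorter genes the shares were similar, with 13.5% on the coding and 12.0% on the template strand. Windows at peaks had a median GC content of 46.4% and tiled windows 40.6%, and the G4-like pattern was not compared at equal GC content.

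Restriction sites were scarce under the peaks. Genomic DNA had been cut with EcoRI, HindIII, BsrGI, SspI and XbaI, whose sites are rich in A and T. Long genes had 1 site of these 5 enzymes per 0.512 kb on average, and the DNA inside the peaks 1 per 1.79 kb. A site was present in 42.1% of the 1 kb windows at peaks and in 83.9% of the windows tiled over long genes, and among windows of 45 to 50% GC in 36.4% and 74.2%. At peaks inside shorter genes the share was 34.1%, against 78.4% of windows tiled over those genes. A site lay no farther than 100 bp from 26.9% of the edges of these peaks, against 25.8% for peaks in shorter genes. The same share for positions away from peaks was not computed, so neither value measures an enrichment of edges at sites. The part of the digestion in where peaks were called was not tested.

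Described by what the genes encode, 238 of the 528 long genes fell in at least 1 of 20 lists, which are compared below with the 66.7% and 4.55 peaks per Mb of all long genes. The lists were set with earlier results of these data known and are described without a test. The lists also differed in GC content, with medians from 37.4% for synaptic organisers and 38.1% for axon guidance to 43.4% for growth factors and receptor kinases. Median gene length differed too, for example 416 kb for transcription factors and cofactors, 853 kb for synaptic organisers and 1340 kb for common fragile site genes. Share and density both changed with gene length, as given above. The part of GC content and of length in the values of the lists was not tested. Among 33 transcription factors and cofactors, 26 had a peak inside, with 147 peaks, 9.23 per Mb, a median of 2 per gene and a median GC content of 42.7%. Besides Npas3 with 24 and Tcf4 with 16, Tshz2 held 10, Sox5, Rora and Zbtb20 held 9 each, and the nuclear factor I genes Nfia and Nfib held 8 and 6. The longest of the 7 with none was Zfp536, and Ebf1, Myt1l and Runx2, regulators of neuronal or skeletal differentiation, also had none. Of 6 RNA-binding proteins 5 had a peak, with 13.6 per Mb, but Msi2 alone gave 27 of their 48 peaks. Rbms3 held 9, Celf2 held 7, and the neuronal splicing factor Rbfox3 held none.

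Signalling genes varied within each list. The 15 enzymes of cyclic nucleotide and lipid signalling held 65 peaks in 11 genes, 17 of them in Pde10a, 11 in Prkcb and 10 in Dgki, while Plcb1, a phospholipase of 689.1 kb, held none. Of 14 exchange factors, GAPs and Dock proteins, which regulate small GTPases, 8 had a peak, led by Dock1 with 20 and Vav3 with 11, and Arhgap15 (647.1 kb) was the longest of the 6 with none. In the list of 9 growth factors and receptor kinases, 37 of 61 peaks were those of the Fgfr2 span. Ntrk2 held 11 and its relative Ntrk3 held 2. Scaffold proteins had a peak in 12 of 13 genes, with a median of 4 per gene and 14 in Ank3, 10 in Grip1 and 6 each in Ank2 and Dlgap1, and only Cask had none.

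The lists of cadherins and catenins, immunoglobulin superfamily adhesion genes, synaptic organisers and glutamate receptors had medians of 1 or 2 peaks per gene. The median over all long genes was 1. Of 14 cadherins and catenins 9 had a peak, yet Cdh13 and Ctnnd2 held 35 of the 50 peaks, and each of the other 7 genes held 4 or fewer. Of 21 immunoglobulin superfamily adhesion genes 12 had a peak, at 2.60 per Mb, led by Ntm with 10 and Kirrel3 with 6. Cntnap2, at 2241 kb one of the longest genes, held 3. The 14 synaptic organisers held 18 peaks in 10 genes, or 1.35 per Mb, and the highest count of any of them was 3, in Bai3 and in Odz2. Of 13 glutamate receptor genes 9 had a peak, with 16 peaks in all and at most 4, in Grik4. The 24 genes of ion channels held 35 peaks in 17 genes, led by the calcium channel Cacna1c with 7. The 15 axon guidance genes held 18 in 10 genes, led by Sema6d with 5. Extracellular matrix and ADAMTS genes had the fewest per Mb among lists of more than 2 genes (6 of 13, 1.18 per Mb), with 2 in Spock1 and 1 in Reln.

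The remaining lists were small. Receptor tyrosine phosphatases held 22 peaks in 5 of 6 genes, 7 of them in Ptprt, against 1 in Ptprd, at 2271 kb the longer gene. The dystrophin complex held 13 in 4 of 6 genes, with 4 each in Dmd, Utrn and Sgcz and none in Sntg1. Glypicans and heparan sulfate enzymes held 13 in 3 of 7 genes, 5 each in Gpc5 and Gpc6. The 4 genes of the Csmd and Lrp families held 16, of which 15 were in Csmd2 and 1 in Csmd1. Of the pair of GABA-A receptor genes, Gabrg3 held 1 and Gabrb1 none. Among the lists not yet covered for genes with none, the longest such genes were Trpm3 (850.8 kb) of the channels, Fgf14 (699.2 kb) of the growth factors, Lama2 (635.7 kb) of the extracellular matrix, Ptprk (522.6 kb) of the phosphatases, Sema3a (477.0 kb) of axon guidance and Hs3st4 (416.1 kb) of the heparan sulfate enzymes.

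**Figure D5:**
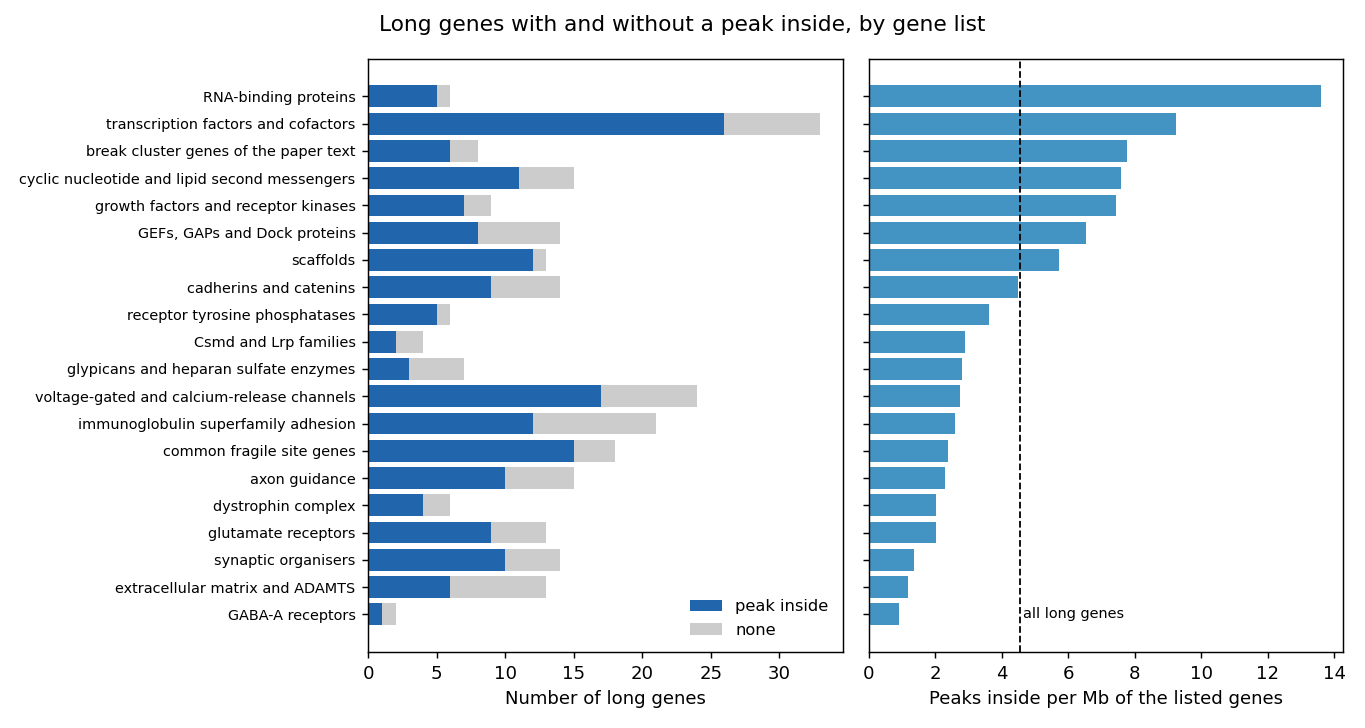
Number of long genes with (blue) and without (grey) a peak inside in each of 20 gene lists (left) and peaks inside per Mb of the listed genes (right). The dashed line is the 4.55 per Mb of all long genes, RNA-binding proteins lie highest at 13.6 per Mb and GABA-A receptors, a list of 2 genes, lowest at 0.902 per Mb.

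Genes of common fragile sites and of recurrent break clusters differed among themselves. Of 18 fragile site genes, with a median length of 1340 kb, 15 had a peak, with 58 peaks and 2.39 per Mb. All genes of 1000 kb or more, without the spans, had 2.17 per Mb and a peak in 85.7% of genes. Exoc4 held 16 of the 58 peaks, Rora 9, Fhit 6, Nbea 5 and Dmd 4, and the other 13 genes held 3 or fewer. Wwox, with Fhit the best known of these sites, held 2, and Macrod2, of 1998 kb, held 1. Of 8 genes that the text of the paper names as holding recurrent clusters of breaks, 6 had a peak, with 67 peaks and 7.76 per Mb. Some of these genes are named in that text for their R-loop peaks, so their count and its place in the plot of gene lists are no independent reading. Npas3, Cdh13 and Ctnnd2 held 59 of them, Magi2 held 4, and Nrxn3 and Lsamp held 2 each, none of which reached 1 kb. Csmd3 and Cadm2 held none.

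The 176 long genes with no peak inside summed to 86.79 Mb. Their median length was 409 kb, against 454 kb for the 352 genes with a peak, and their median GC content was 38.8% against 41.6%. Of the 176, 168 were overlapped by no peak at all, 6 had a peak at the start, 1 had a peak at the end and 1 was overlapped by a peak elsewhere. The 12 longest were Lrp1b (2058 kb), a receptor of the LDL receptor family, Pcdh15 (1550 kb), a protocadherin of hair cells, Il1rapl1 (1375 kb), Il1rapl2 (1276 kb), Cntn5 (1244 kb), Csmd3 (1211 kb), Frmpd4 (1106 kb), Cadm2 (965.5 kb), Sntg1 (938.4 kb), Grm7 (921.6 kb), Odz1 (901.3 kb) and Cntnap5a (897.3 kb). Of these 12, 4 lie on the X chromosome, and their GC content was at most 39.2%.

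Genes with none often lay in wide stretches without peaks, but not always. For the 168 genes that no peak overlapped, the nearest peak was a median of 152 kb away, over 100 kb for 101 of them, over 500 kb for 39, and 2139 kb at most. The nearest peak to Lrp1b lay 1380 kb away, to Il1rapl2 1300 kb and to Cntn5 1020 kb. Pcdh15, in contrast, had 8 peaks within 500 kb on each side, the nearest at 6.62 kb from the gene, and Grm7 had one at 28.8 kb. In the 500 kb on either side, genes with a peak inside had a median of 8.00 peaks per Mb, genes with none 3.00, and the 27 genes with 10 or more 13.0. No expression values were used here, so whether the genes with none were transcribed in these cells was not examined. The paper read transcription in NSPCs from GRO-seq data, which were not part of the values here.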

How the data were processed

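DRIP-seq reads of primary NSPCs had been trimmed by the authors (Trim Galore 0.6.6), mapped to mm9 and freed of duplicates, and a Hidden Markov Model then gave the peaks. The deposited list holds 1 line per peak with its chromosome and both end positions in base pairs, without count, signal or score. How the 3 biological replicates were combined is not given in the sources used here, and depth per sample is unknown.

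Positions were read against the genome sequence of the same build and its GENCODE M1 annotation. A gene ran from its annotated start to its end, and a peak was assigned by its midpoint. Restriction sites, repeat runs and G runs were searched on the sequence. Gene symbols were looked up in a RefSeq table, which listed 478 of the 528 long genes by symbol and 45 more by an older symbol. Assignment was tested on simulated data. Calculations used Python 3.11.15, numpy 2.4.6, scipy 1.17.1, pysam 0.24.0 and matplotlib 3.10.9.

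The members, gene lists and tests were chosen with earlier results of these data known. Genes named in the text were the 20 with the most peaks, the 5 with the most per 100 kb, the 12 longest with none, the break cluster genes of the paper's text, the leading and the longest bare gene of each list, the genes of the 5 widest, 5 most GC-rich and 5 most G-rich peaks, and those beside the length limit. Other genes were named after their values were seen, and results for some genes are not reported here. The alternatives were other limits of gene length, peak width, assignment, transcripts and exons, merging of close peaks and autosomes alone.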

Additional observations from a re-analysis of the deposited data

How the results depend on the processing

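Of 11 alternative settings, 2 were chosen after seeing the data. A count or density was read as moved beyond 1.5 times its value, and a share outside its 95% exact binomial interval. Keeping peaks of at least 1 kb left 611 peaks inside 174 long genes, 2.05 peaks per Mb, 15.9% in the first 10% of the gene, 75.1% free of exons and 62.4% with more G than C. A limit of 500 kb left 667 peaks inside 146 of 200 genes, with 16.0% in the first 10% and 52.5% with more G than C. A limit of 200 kb gave 2393 peaks inside 622 of 954 genes, with 83.8% free of exons, 49.1% of at least 1 kb and 58.4% with more G than C. Excluding the starts and ends of all protein-coding transcripts gave 89.2% free of exons. Leaving out the spans over 5 or more other genes, chosen after seeing the data, gave 88.4% free of exons and 22.7% over 50% GC. Leaving out peaks that also lay in another protein-coding gene, chosen likewise, gave 89.2% and 23.6%. The remaining 53 values, among them those for merged peaks and autosomes alone, did not move by these measures. They include the values for whole peaks inside the gene, which could not differ from the main ones. A peak that reaches past its gene holds the start or end of that gene and was already left out. No paired analysis was possible because 1 peak list was analysed. Without read depth, a gene with no peak cannot be told from a gene whose hybrids were too few to be called.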
